A study of Mus musculus with 6 samples.

Results

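Microtubule genes were followed in mouse primary oligodendrocyte precursor cells (mOPCs) after knockdown of Qk, the gene of the Qki RNA-binding proteins. The genes were taken by symbol alone and comprise the alpha, beta and gamma tubulins, the gamma tubulin complex, the tubulin folding cofactors, the Tppp family, the stathmins, Dcx, the end-binding proteins, the CLASPs, the CLIPs and the SLAINs. The symbols gave 47 of the 23038 genes in the files. mOPCs are glial precursors, purified here from mouse embryos by immunopanning, that give rise to the myelin-forming oligodendrocytes (OLs). The siNC group held 3 libraries of cells transfected with control siRNA and the siQk group held 3 libraries of cells transfected with siRNAs against Qk, all collected 72 h after transfection. The labels speak of biological replicates and of several Qk siRNAs, but which siRNA each siQk library received is not stated, so that differences between siRNAs and between cultures cannot be told apart.

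Microtubules are hollow polymers of alpha and beta tubulin dimers. Gamma tubulin complexes start them, folding cofactors assemble the dimers, and proteins that track the growing plus end set how long they grow and where they attach. In OLs, microtubules carry myelin mRNAs and membrane out into long branched processes, and Tppp, a microtubule-bundling protein of OLs that also starts microtubules on Golgi outposts, is known for its part in the length of myelin sheaths. Stathmins act in the opposite sense by binding free dimers and promoting disassembly.

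After Qk knockdown the Tppp transcript fell to 10.2% of its siNC level, the largest change among these genes. The beta tubulin Tubb6, the stathmin Stmn4, the plus-end proteins Mapre1 and Clasp2, the CLIP-family gene Clip3, and the main alpha tubulin Tuba1a also fell. Stmn3, the gamma tubulin gene Tubg2, the beta tubulin Tubb2b, the pseudogene Tubb2a-ps2, Clasp1 and Tubgcp6 rose. Levels are given as RPKM, the tags of a gene divided by its exon length and by the library total, which allows levels to be set side by side between genes. Changes are log2 fold changes of siQk over siNC from edgeR's quasi-likelihood test on the tag counts, and a call required P below 0.01 together with a false discovery rate (FDR, Benjamini-Hochberg over all genes tested) below 0.1. Of the 47 genes, 40 had enough tags to be tested and 13 of them were called (32.5%), against 31.0% of all 12505 tested genes. The call was higher for 6 (15%, background 13.8%) and lower for 7 (17.5%, background 17.2%). The share called was thus near that of all genes, in both directions. The split depended on the scaling, with 11 higher and 5 lower under library size only and 7 higher and 5 lower under upper quartile scaling. Over all genes, lower calls went from 55.4% of calls with TMM to 31.4% and 44.4% under these scalings. Over the 40 genes the log2 fold change had a median of -0.02 and its size a median of 0.31, against 0.01 and 0.25 over all genes. RPKM ranges of siNC and siQk did not overlap for 25 of the 40 (62.5%, background 58.3%).

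**Figure D1:**
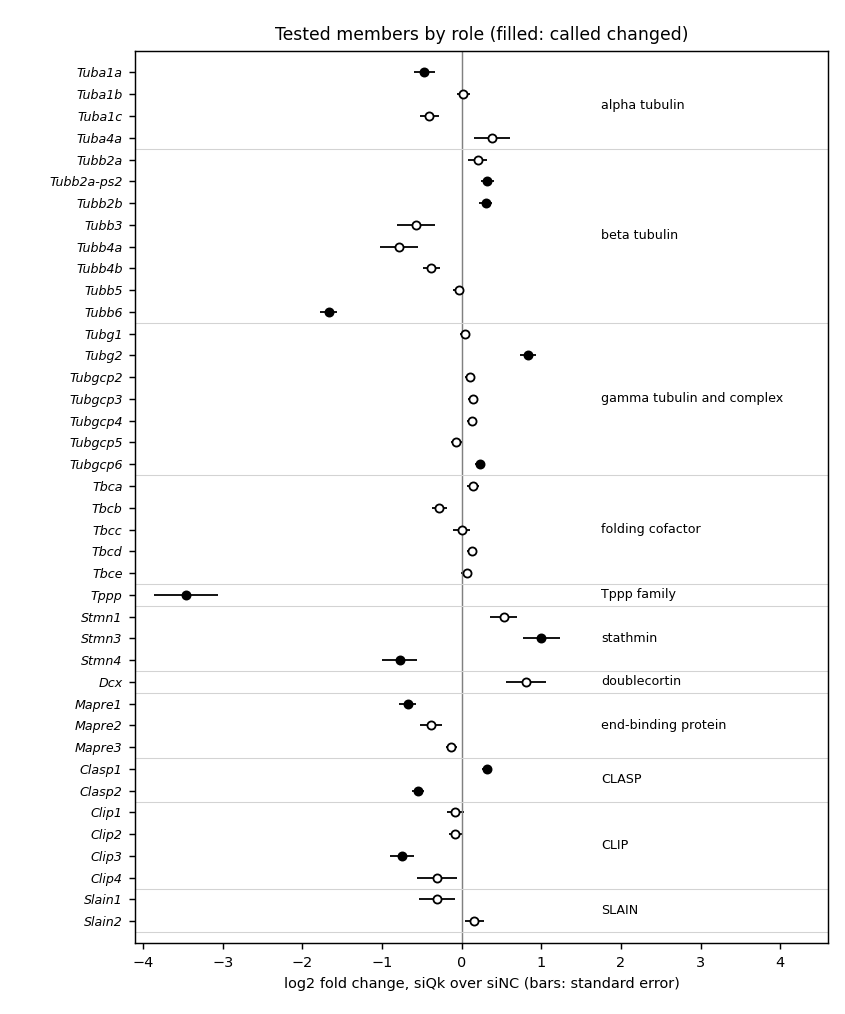
Log2 fold change, siQk over siNC, of the 40 tested microtubule genes, grouped by role. Points are estimates from edgeR's quasi-likelihood test, bars are standard errors and filled points are called genes. Tppp lies at -3.46 and Tubb6 at -1.67, while most other genes lie within 1 of zero.

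Qk itself, the targeted gene, stood at 209, 206 and 163 RPKM in the siNC libraries and at 51.3, 76.6 and 36.2 RPKM in the siQk libraries (log2 fold change -1.98, SE 0.28, FDR 0.00311 from edgeR's quasi-likelihood test). Library totals ranged from 58166490 to 141045937 tags. The smallest library, siNC replicate 1, gave 3.11% of its tags to Rn45s, a ribosomal RNA gene, whereas the others gave it 0.169% to 0.389%. RPKM carries no normalization factor between libraries. The TMM factors of the test ran from 0.899 to 0.987 in siNC and from 1.044 to 1.066 in siQk, so that an RPKM difference reads higher for siQk than the log2 fold change does. OPC markers such as Pdgfra were present in all libraries, with a summed level of 1023 to 1100 RPKM in siNC and 1217 to 1370 RPKM in siQk. Of the 8 OPC markers, 4 were called (50%, background 31.0%). Cspg4 (0.93), Olig1 (0.43) and Olig2 (0.69) were higher and Lhfpl3 (-1.07) was lower on the log2 scale. Microglial markers summed to at most 3.3 RPKM, with C1qa at 0, and fibroblast and vascular markers to at most 0.239 RPKM. Most of the microglial sum was P2ry12, at 0.669, 3.2 and 1.19 RPKM in siNC and 0.152, 0.186 and 0.287 RPKM in siQk. P2ry12 was the only microglial marker tested and was called lower (log2 fold change -3.16, FDR 0.00886, edgeR). Of 6 tested astrocyte markers, 4 were called lower in siQk (66.7%, background for lower calls 17.2%). Their log2 fold changes were -2.95 for Gfap, -2.21 for Aldh1l1, -1.38 for Slc1a3 and -1.06 for Slc1a2. The astrocyte list summed to 207 to 306 RPKM in siNC and 179 to 207 RPKM in siQk, a large part of it S100b (log2 fold change 0.01, not called), and without S100b to 97.1 to 156 RPKM in siNC and 30.7 to 34 RPKM in siQk. Mature OL markers such as Mbp and Mag set siNC replicate 3 and siQk replicate 3 apart within their groups, as the values given after Tppp show. Opalin instead was lowest in siNC replicate 2, with 180, 82.9 and 115 RPKM in siNC. In bulk RNA, fewer cells of a type and less RNA per cell cannot be told apart.

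Tppp (Entrez 72948, GRCm38 chr13:74009407-74035753, plus strand) was the most reduced gene of the set. Its level was 145, 104 and 54.6 RPKM in siNC replicates 1 to 3 and 8.66, 9.6 and 12.9 RPKM in siQk replicates 1 to 3. The groups were far apart, although the siNC libraries differed among themselves, with siNC replicate 3 the lowest. The means were 101 ± 45.5 RPKM in siNC and 10.4 ± 2.24 RPKM in siQk (SD, n = 3), and the log2 fold change was -3.46 (SE 0.40, FDR 0.00182, edgeR). The lowest tag count behind these values was 4043. In the other settings tried, the log2 fold change lay between -3.77 (without siNC replicate 3) and -3.05 (without siNC replicate 1), and the call was kept. The paralogs Tppp2 and Tppp3 were too low to be tested, with Tppp3 at most at 1.22 RPKM.

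Markers of mature OLs moved in the same libraries. Of the 8 listed, 7 were tested and 6 were called, all lower (85.7%, background for lower calls 17.2%). The 7 had a median log2 fold change of -1.98. The 8 had a summed level of 2473 to 4723 RPKM in siNC against 997 to 1640 RPKM in siQk. Mbp, which compacts the myelin membrane, stood at 233, 209 and 86.5 RPKM in siNC and at 31.9, 18.2 and 78 RPKM in siQk. Mag, an adhesion protein of the inner myelin membrane, stood at 174, 158 and 55.6 RPKM in siNC and at 16.8, 15.7 and 40 RPKM in siQk. As for Tppp, siNC replicate 3 was the lowest control and siQk replicate 3 the highest knockdown library. The part of the mature OL markers in the Tppp, Tubb4a and Stmn4 values was not tested.

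**Figure D2:**
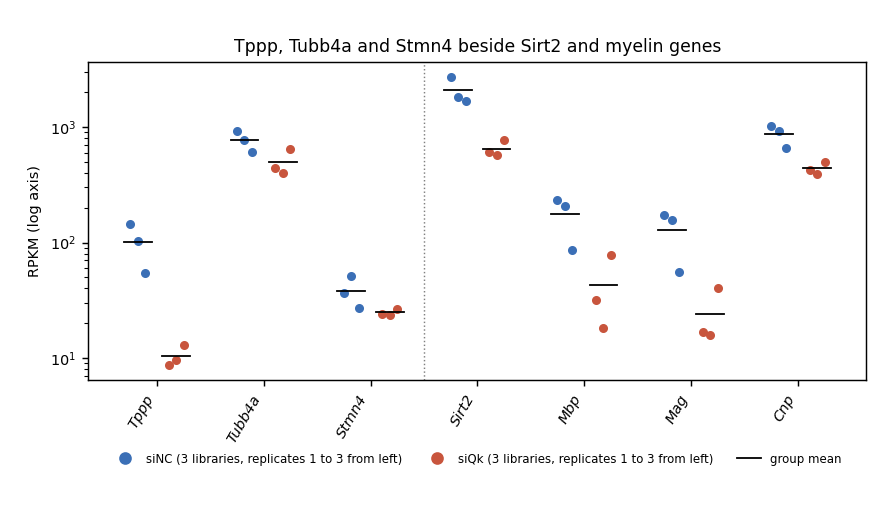
RPKM (log axis) of Tppp, Tubb4a and Stmn4, left of the dotted line, and of Sirt2, Mbp, Mag and Cnp, right of it. Points are single libraries in replicate order and lines are group means. Tppp separates the groups by the widest margin, and siQk replicate 3 is the highest siQk library for all 7 genes.

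Among alpha tubulins, Tuba1a, the main alpha tubulin of developing neural cells, made up nearly all of the summed level. It was the only alpha tubulin called. Tuba1a (Entrez 22142) and its neighbour Tuba1b are nearly the same gene over the coding part, which bears on how reads can be assigned. They differ at 23 of 1356 coding bases (98.3% identical). Of all 75-base windows of the Tuba1a transcripts, 68.2% also occur in transcripts of another gene, and for Tuba1b the share is 71.9%. These shares count matches to any other gene. The largest partner of both was Tuba1c, with 39.9% of the Tuba1a and 53.4% of the Tuba1b windows. Of the Tuba1c windows, 56.7% also occur in another gene. The split of tags among Tuba1a, Tuba1b and Tuba1c is therefore uncertain.

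Tuba1a stood at 1871, 1512 and 1692 RPKM in siNC and at 1309, 1278 and 1500 RPKM in siQk. All siQk libraries lay below all siNC libraries, the closest pair being siNC replicate 2 and siQk replicate 3. The means were 1692 ± 180 and 1362 ± 120 RPKM (SD, n = 3), and the log2 fold change was -0.47 (SE 0.13, FDR 0.0321, edgeR), with a P just inside the limit. The call was lost in 9 of the 14 other settings, with a log2 fold change of -0.34 without siNC replicate 1, -0.50 without siNC replicate 3 and -0.44, -0.41 and -0.55 without siQk replicates 1, 2 and 3. Tuba1c, a widely expressed alpha tubulin, had a log2 fold change of -0.41 (FDR 0.0369, edgeR) and was not called. It was called at -0.52 without siNC replicate 2 and also with DESeq2 in place of edgeR. Tuba1b had a log2 fold change of 0.02. Tuba3b was at 0 in every library, where 3 tags in the smallest library would have given 0.0329 RPKM (this limit covers counting error only).

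Summed over the 7 alpha tubulin genes, the level was 1940, 1571 and 1762 RPKM in siNC and 1374, 1340 and 1564 RPKM in siQk, so that the lowest siNC and highest siQk libraries nearly met. The siQk mean was 81.1% of the siNC mean, or 72.8% after division by the TMM factors. Tuba1a was 96.1% to 96.4% of the sum in siNC and 95.3% to 95.9% in siQk, a small difference without overlap. The mean share of Tuba1b was 1.55% in siNC and 2.16% in siQk, and that of Tuba4a 0.0293% and 0.0512%, both also without overlap. The shares of Tuba1a and Tuba1b rest on the uncertain split of tags described above. Such sums and shares are given without a test.

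The beta tubulins showed a larger difference in makeup. Tubb4a, the beta tubulin typical of OLs and of some neurons, was the most abundant beta tubulin in both groups, followed by Tubb2b in the means. Tubb2a and Tubb2b lie side by side and share most of their coding sequence, whereas Tubb4a, Tubb5 and Tubb3 have tails of their own. The tails are shown because their bases tell these genes apart. In the Tubb2a and Tubb2b lines capitals mark bases that differ between them, and in the others capitals mark the stop codon. They are the last 60 coding bases, which encode the acidic end where tubulins differ most, from GENCODE M21 on GRCm38, at chr13:34074468-34074527 (minus strand), chr13:34127471-34127530 (minus strand), chr17:57080690-57080749 (minus strand), chr17:35834982-35835041 (minus strand) and chr8:123421623-123421682 (plus strand).
Tubb2a: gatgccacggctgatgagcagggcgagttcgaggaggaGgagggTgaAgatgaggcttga
Tubb2b: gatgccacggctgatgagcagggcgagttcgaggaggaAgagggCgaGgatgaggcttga
Tubb4a: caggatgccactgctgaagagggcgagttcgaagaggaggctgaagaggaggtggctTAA
Tubb5: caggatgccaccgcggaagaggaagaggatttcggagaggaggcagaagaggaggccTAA
Tubb3: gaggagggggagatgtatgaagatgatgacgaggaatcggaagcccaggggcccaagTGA
Tubb2a and Tubb2b differ at 3 of these 60 bases and at 47 of 1338 coding bases (96.5% identical). The 3 differing bases of the tail leave the encoded amino acids the same. Of their 75-base windows, 43.2% and 32.2% also occur in another gene. No such window was found for Tubb4a, Tubb5, Tubb3 or Tubb6.

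Tubb6 (Entrez 67951), a less abundant beta tubulin that is widely expressed outside neurons, fell the most of the tubulins. Its level was 6.3, 8.03 and 6.8 RPKM in siNC and 2.48, 2.42 and 2.48 RPKM in siQk. The groups did not overlap and the siQk libraries were nearly alike. The means were 7.04 ± 0.892 and 2.46 ± 0.0369 RPKM (SD, n = 3), and the log2 fold change was -1.67 (SE 0.11, FDR 0.000438, edgeR), and the call was kept in all 14 other settings.

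Tubb2b (Entrez 73710), a beta tubulin of young neural cells, stood at 299, 277 and 287 RPKM in siNC and at 406, 384 and 393 RPKM in siQk. The groups were well separated, at 287 ± 10.7 and 394 ± 11 RPKM (SD, n = 3), and the log2 fold change was 0.30 (SE 0.08, FDR 0.0276, edgeR). Tubb2a-ps2, a processed pseudogene of Tubb2a, stood at 31, 29.3 and 30.1 RPKM in siNC and at 42.5, 40.5 and 42.4 RPKM in siQk (log2 fold change 0.32, SE 0.08, FDR 0.0228, edgeR). It shares 16.8% of its windows with other genes, and tags of other tubulins may be counted in it. Tubb2a did not pass, with a log2 fold change of 0.20 (SE 0.12, FDR 0.229, edgeR). The calls of Tubb2b and Tubb2a-ps2 were small and were lost when single libraries were left out. Tubb2b was then at 0.26 and 0.27 without siNC replicates 2 and 3 and at 0.28, 0.33 and 0.30 without siQk replicates 1, 2 and 3. Tubb2a-ps2 was at 0.29 without either of siNC replicates 2 and 3, and at 0.31, 0.35 and 0.30 without siQk replicates 1, 2 and 3.

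Tubb4a (Entrez 22153) stood at 928, 773 and 612 RPKM in siNC and at 439, 404 and 647 RPKM in siQk. The groups overlapped, since siQk replicate 3 lay above siNC replicate 3, the same libraries that stood apart for Mbp and Mag. The means were 771 ± 158 and 496 ± 132 RPKM (SD, n = 3) and the log2 fold change of -0.79 (SE 0.24, FDR 0.0422, edgeR) missed the P limit. It was called in 4 of the 14 other settings, at -0.96 without siNC replicate 3 and at -1.04 without siQk replicate 3. The other calls came with no filter on low counts and with DESeq2 in place of edgeR. Tubb3, a beta tubulin widely used to mark neurons, stood at 97.6, 166 and 106 RPKM in siNC and at 104, 68.4 and 103 RPKM in siQk, with overlapping groups and a log2 fold change of -0.57 (SE 0.24, FDR 0.104, edgeR). Tubb4b, found in many tissues, had means of 139 ± 9.99 and 119 ± 12.4 RPKM and a log2 fold change of -0.38 (FDR 0.0374, edgeR), with a P over the limit. It was called at -0.47 without siQk replicate 3 and also with DESeq2. Tubb5, the beta tubulin of dividing cells among others, had means of 203 ± 6.37 and 219 ± 8.88 RPKM and a log2 fold change of -0.04.

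Summed over 8 beta tubulin genes, without the pseudogene, the level was 1703 ± 151 RPKM in siNC and 1541 ± 175 RPKM in siQk (SD, n = 3), with overlapping groups. Tubb4a took 50%, 45.5% and 39.4% of this sum in siNC and 29.2%, 29.1% and 37.4% in siQk. Tubb2b took 16.1%, 16.3% and 18.5% in siNC and 27%, 27.7% and 22.7% in siQk. The ranges of both shares did not overlap, with siNC replicate 3 and siQk replicate 3 closest to each other. Tubb2a took 10.2% on average in siNC and 14.1% in siQk, but its share is 1.87% and 2.71% when tags are not divided by length. The length used by the authors for Tubb2a is 356 bases, 22.1% of its exons in GENCODE M21, so that its RPKM is high for its tags. The shares of Tubb3, Tubb4b and Tubb5 overlapped between groups. A share does not depend on the scaling of the libraries. Ordered by mean RPKM in siNC, the beta tubulins ran Tubb4a, Tubb2b, Tubb5, Tubb2a, Tubb4b, Tubb3 and Tubb6, and of neighbours in this order the ranges of Tubb4b and Tubb3 overlapped. The place of Tubb2a holds only on the RPKM scale with the authors' length, since in tags not divided by length its share in siNC (1.87%) lay below those of Tubb4b (7.12%) and Tubb3 (6.47%). The RPKM order was the same in siQk, where the ranges of Tubb4a and Tubb2b and those of Tubb5 and Tubb2a overlapped.

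**Figure D3:**
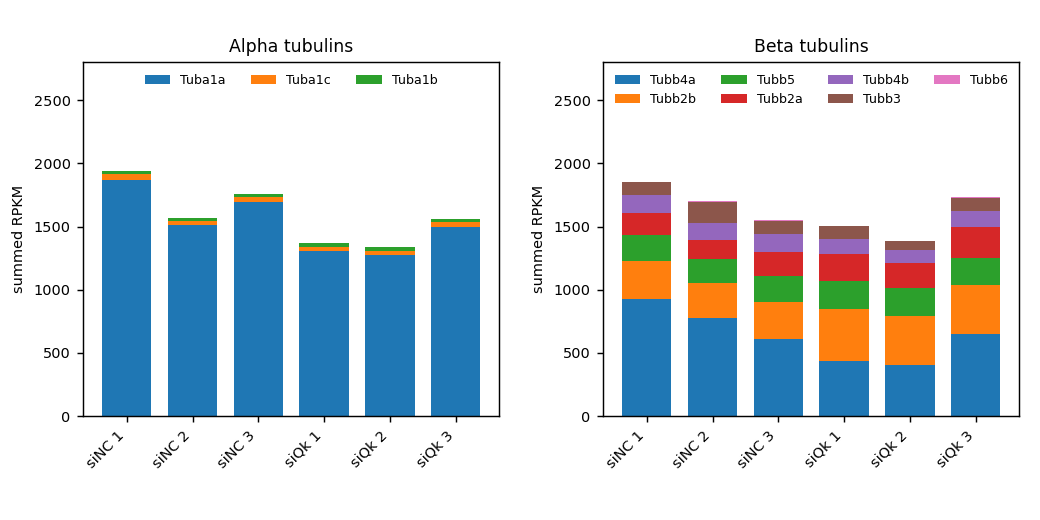
Summed RPKM of alpha tubulins (left) and beta tubulins (right) in each library, stacked by gene and starting at 0. Genes with a mean under 1 RPKM are left out. The Tubb4a block is 50% of the beta sum in siNC replicate 1 and 29.2% in siQk replicate 1, while Tuba1a fills the alpha bars in all 6 libraries.

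Of the genes that start microtubules, the gamma tubulins and the 5 other subunits of their complex, 2 of 7 were called (28.6%, background 31.0%), both higher. Tubg2 (Entrez 103768), the less abundant of the gamma tubulin genes and known mainly from the brain, stood at 2.15, 2.34 and 2.48 RPKM in siNC and at 4.5, 4.95 and 4.33 RPKM in siQk. The groups were well apart, and the log2 fold change was 0.83 (SE 0.10, FDR 0.00188, edgeR) on at least 277 tags per library. Its call was kept in all 14 other settings. Of the 75-base windows of Tubg2, 7.86% also occur in Tubg1. Tubg1, the main gamma tubulin gene, was at 35 ± 0.443 and 40 ± 0.444 RPKM (SD, n = 3) and had a log2 fold change of 0.04 (SE 0.06, FDR 0.657, edgeR). Its RPKM ranges did not overlap, but RPKM carries no TMM factor. Tubgcp6, a large subunit of the complex, had means of 6.41 ± 0.228 and 8.37 ± 0.267 RPKM and a log2 fold change of 0.23 (SE 0.06, FDR 0.0245, edgeR). Its call was lost in 7 of the 14 other settings, among them thinning to the smallest library and the replicate number as a block. The other losses came without siNC replicate 1 (0.25) or 3 (0.20) and without siQk replicate 1 (0.25), 2 (0.22) or 3 (0.24). Of its exon bases, 8.71% overlap Selenoo on the opposite strand, which the library kit does not tell apart. The uncalled genes of the complex had log2 fold changes between -0.07 and 0.14.

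None of the 5 tubulin folding cofactors was called, where 31.0% of all tested genes were, so that a count of 0 of 5 says little. They help alpha and beta tubulin to fold and to pair into dimers, and their log2 fold changes lay between -0.28 and 0.14. Tbca, which binds beta tubulin, had means of 129 ± 14 and 158 ± 8.65 RPKM (log2 fold change 0.14, FDR 0.182, edgeR). Tbcb, which binds alpha tubulin, had means of 74.9 ± 10.8 and 68.5 ± 3.12 RPKM and a log2 fold change of -0.28 (FDR 0.0499, edgeR), with a P over the limit. DESeq2, run as an alternative, called Tbcb lower (-0.28), and a scaling by library size alone called Tbcd higher (0.27). The 5 genes thus had small differences and no call in the edgeR test, which by itself does not show equal levels.

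The stathmins moved in opposite directions. Stmn3 (Entrez 20262), a neural stathmin that is anchored to Golgi membranes, stood at 40.5, 51.8 and 31.7 RPKM in siNC and at 91.3, 71.1 and 113 RPKM in siQk. All siQk libraries lay above all siNC libraries, at 91.6 ± 20.8 against 41.3 ± 10.1 RPKM (SD, n = 3), and the log2 fold change was 1.0 (SE 0.23, FDR 0.0171, edgeR). The call was lost without siNC replicate 1 (1.02), siQk replicate 1 (1.0) or siQk replicate 3 (0.82) and with the replicate number as a block (1.0). Stmn4 (Entrez 56471), a stathmin found in neural cells, had 36.6, 50.9 and 27.3 RPKM in siNC and 24.2, 23.6 and 26.6 RPKM in siQk. Here siNC replicate 3 lay just above siQk replicate 3. Its log2 fold change was -0.78 (SE 0.22, FDR 0.0315, edgeR), and the call was lost in 8 of the 14 other settings. It was lost under upper quartile scaling, with library size only and with the replicate number as a block. The other losses came without siNC replicate 1 (-0.77) or 2 (-0.54) and without siQk replicate 1 (-0.76), 2 (-0.74) or 3 (-0.84).

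Stmn1, the stathmin of dividing and immature cells, stood at 14.1, 20.4 and 18.3 RPKM in siNC and at 34.1, 28.1 and 22.6 RPKM in siQk. The groups did not overlap, but the log2 fold change of 0.53 (SE 0.17, FDR 0.0493, edgeR) missed the P limit. Stmn1 was called in 4 of the 14 other settings, at 0.67 without siQk replicate 3. The other calls came with library size only, no filter on low counts and DESeq2. Of its windows, 30.5% also occur in another gene. All 8 markers of dividing cells were called higher, with a median log2 fold change of 1.71 and a summed level of 30.1 to 34.8 RPKM in siNC against 71.4 to 143 RPKM in siQk. Their part in the Stmn1 value was not tested. Stmn2, a stathmin of neurons, was at most at 0.0439 RPKM in any library and was not tested.

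Dcx, a microtubule-binding protein of migrating young neurons that some OPCs also express, stood at 6.66, 14.2 and 8.19 RPKM in siNC and at 17.8, 20.9 and 17.5 RPKM in siQk. The groups did not overlap, with siNC replicate 2 the nearest control. The log2 fold change of 0.81 (SE 0.25, FDR 0.046, edgeR) missed the P limit. Dcx was called in 5 of the 14 other settings, at 1.18 without siNC replicate 2. The other calls came with library size only, no filter on low counts, DESeq2 and the replicate number as a block. Of 14 neuron markers, which did not include Dcx, Tubb3 or Stmn2, 11 were tested, with a median log2 fold change of 0.61. Of these 11, 3 were called (27.3%, background 31.0%), all higher (Snap25, Syp and Nefl, background for higher calls 13.8%). Among the 8 that were not called, Eno2 (-0.61), Elavl3 (-0.61), Rbfox3 (-0.57) and Gap43 (-0.27) had log2 fold changes below 0 and the other 4 above 0. The summed level of the list was 199 to 240 RPKM in siNC and 208 to 225 RPKM in siQk, most of it Gap43, and without Gap43 it was 54.6 to 75.6 and 69.7 to 82.9 RPKM. In this list Slc17a6, the glutamate transporter of many neurons, was at 0 in all libraries. The part of these markers in the Dcx and Stmn3 values was not tested.

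At the growing plus end, Mapre1 (EB1, Entrez 13589), the core end-binding protein that recruits the others, fell. It stood at 64.6, 64.1 and 54.3 RPKM in siNC and at 42.6, 41 and 43.9 RPKM in siQk. The groups did not overlap, at 61 ± 5.79 against 42.5 ± 1.45 RPKM (SD, n = 3), and the log2 fold change was -0.68 (SE 0.11, FDR 0.00465, edgeR). Mapre2 (EB2), a relative that binds plus ends more weakly, had means of 67 ± 8.54 and 56.8 ± 7.4 RPKM and a log2 fold change of -0.39 (SE 0.14, FDR 0.0723, edgeR), and was called at -0.51 without siNC replicate 3. Mapre3 (EB3), the form enriched in neural tissue, had a log2 fold change of -0.13 and was not called. Mapre1 and Mapre2 thus had similar mean RPKM in siNC. The lengths used by the authors are 93.8% of the GENCODE M21 exon bases for Mapre1 and 64.3% for Mapre2, so that the similarity holds for RPKM only.

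Clip3 (Entrez 76686), a CLIP-family protein of Golgi and endosomal membranes, was the most abundant gene among the end-binding proteins, CLASPs, CLIPs and SLAINs. It stood at 304, 247 and 240 RPKM in siNC and at 176, 156 and 192 RPKM in siQk, again without overlap. Its log2 fold change was -0.75 (SE 0.15, FDR 0.0101, edgeR). Clip1 and Clip2, the CLIPs that track plus ends, and Clip4 were not called, with log2 fold changes between -0.31 and -0.08. Clip4 was called at -0.57 without siNC replicate 1.

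The CLASPs, which rescue microtubules from shrinkage and attach them to the cell edge and Golgi, moved in opposite directions. Clasp1 rose from 18.8 ± 1.42 to 26.1 ± 1.23 RPKM (SD, n = 3), or by 0.32 on the log2 scale (SE 0.06, FDR 0.00804, edgeR). Clasp2 fell from 35.5 ± 3.56 to 26.9 ± 0.609 RPKM (SD, n = 3), a log2 difference of -0.55 (SE 0.07, FDR 0.00236, edgeR). In RPKM, Clasp2 was thus the higher of the pair in siNC, whereas the means were nearly equal in siQk. This comparison rests on the authors' exon lengths, which are 44.7% of the GENCODE M21 exon bases for Clasp1 and 87.6% for Clasp2. Neither of the SLAINs, partners of end-binding proteins, was called, with log2 fold changes of -0.31 for Slain1 and 0.16 for Slain2. Slain1 was called at -0.54 without siNC replicate 3.

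**Figure D4:**
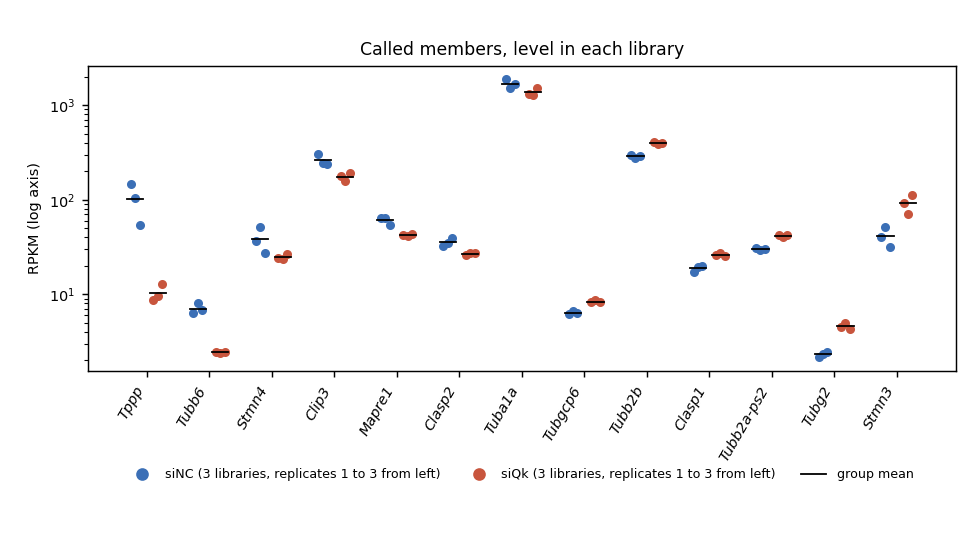
RPKM (log axis) of the 13 called genes in each library, ordered by log2 fold change from Tppp (-3.46) to Stmn3 (1.0). Points are single libraries in replicate order and lines are group means. In each of the 13 genes the siNC and siQk libraries do not overlap, but the genes were selected by their call in these same libraries. Over all tested genes the share without overlap is 58.3%.

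The 7 calls of Tppp, Tubb6, Tubg2, Clip3, Mapre1, Clasp1 and Clasp2 were kept in all 14 other settings. None of the 13 called genes changed sign in any of them.

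Beside these genes, 71 other microtubule genes were listed by function, of which 66 were matched by symbol, 57 were tested and 21 were called (36.8%, background 31.0%), 11 higher and 10 lower. Enzymes that modify tubulin tails gave 7 calls of 16 tested, 3 higher and 4 lower. The lowest was Sirt2, a tubulin deacetylase abundant in OLs, at 2726, 1835 and 1682 RPKM in siNC and 603, 573 and 775 RPKM in siQk (log2 fold change -1.84, SE 0.25, FDR 0.00278, edgeR). As for Mbp and Mag, siNC replicate 3 was the lowest control and siQk replicate 3 the highest knockdown library. Among the Sirt2 controls, however, siNC replicate 1 stood furthest apart. Genes for nucleation and minus ends gave 5 calls of 20, with Haus2, a subunit of the augmin complex that branches microtubules, lower (-1.42) and Camsap3, which caps minus ends, higher (1.02). Tpx2, a spindle assembly factor of dividing cells, was also higher (1.74). Camsap3 was low, at 0.14, 0.164 and 0.19 RPKM in siNC and 0.293, 0.407 and 0.419 RPKM in siQk. Its relatives Camsap1 (0.24) and Camsap2 (0.09) were not called. Severing enzymes gave 2 calls of 7, with the katanin relative Katnal1 lower (-1.22). Other plus-end genes gave 5 calls of 10, with Gtse1 (1.81), a plus-end protein of dividing cells, and Tacc2 (1.12) higher and Tacc1 (-0.94) lower. Tbcel and Arl2, relatives and partners of the folding cofactors, were the 2 calls among the remaining 4 genes, both lower (-0.42 and -0.86). Tpx2 and Gtse1 moved with the markers of dividing cells, whose part in them was not tested.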

How the data were processed

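RNA of 6 mOPC cultures (3 siNC, 3 siQk) had been made into unstranded libraries from polyadenylated RNA (TruSeq RNA kit) and, per the study's methods, aligned to mm10 with OLego and quantified with Quantas. Versions, gene annotation and the nature of a tag (read or pair) are not given in the sources used here. The authors deposited for each of 23038 genes an estimated count of tags, without normalization, and its RPKM. The deposited RPKM equals tags divided by the exon length and library total.

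Estimated counts were rounded. Genes with an average logCPM over 0 (12505) were tested with edgeR 4.0.16 (limma 3.58.1, R 4.3.3), TMM factors and the group as the only term. SE is the size of the log2 fold change over the root of its F statistic. Spread is SD over 3 libraries. An exact two-sided permutation test of 3 against 3 cannot go below p = 0.1. Replicates differed by far more than sampling noise (chi-square per degree of freedom 44.7 or more) and were each counted. The test was also run on simulated data (12511 genes, 200 altered). There, 100% of genes altered by 1 and 33.7% of those altered by 0.5 on the log2 scale were called. Of the calls made there, 10.8% were unaltered genes. These rates hold for that setting only. In the real libraries 31.0% of tested genes were called, and the rates at such a share were not tested.

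Named with values were all called genes, all tested genes with a mean of at least 50 RPKM, and Tppp, Tubb3, Dcx, Stmn1 and Qk, and of the other microtubule genes the 4 highest and 4 lowest among calls. The others named were chosen after their values were seen. Genes and lists were chosen with earlier results of these data known. Positions and sequences are from GENCODE M21 (GRCm38, the assembly of mm10). Shared windows of 75 bases were exact matches to transcripts of other genes. The alternatives were other normalizations, filters and cutoffs, DESeq2 1.42.0, each library left out, thinning to the smallest library, a block on the replicate number, and sums and shares of tags not divided by length. Some items are not reported here.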

Additional observations from a re-analysis of the deposited data

How the results depend on the processing

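The limits are 3 libraries per group, spread between which includes siRNA and culture, tags shared among near-identical tubulins, and no strand. Qk kept its direction and call in all settings. Of 560 values of single genes over the settings, 475 kept direction and call, 41 lost the call, 25 gained it and 19 changed sign, all 19 in uncalled genes near 0.

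With library size only, under which the median over all genes moved to 0.16, 11 microtubule genes were called higher. DESeq2 called 19 (8 higher, 11 lower) and more over all genes too, 4894, of which 2681 were lower. A cutoff of FDR below 0.05 with a change of at least 1 left 946 of all genes, 2 microtubule genes (Tppp and Tubb6), 0 higher and 2 lower, and 8 other microtubule genes, as that cutoff also sets a size. Leaving out 1 library gave 2478 to 3704 calls over all genes, 7 to 12 among the microtubule genes (2 to 5 higher, 5 to 9 lower) and 18 to 21 among the other microtubule genes. In CPM (tags scaled to the library total but not to length), the alpha sum was 2828 in siNC and 2294 in siQk, the beta sum 3307 and 2861, the Tuba1a share 95.8% and 95.1% and the Tubb4a share 51.6% and 38.3%.

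Replicate numbers did not pair the libraries, as deviations of same-numbered libraries correlated at -0.05, -0.15 and -0.34. With the replicate number as a block, 8 microtubule genes were called (3 higher), 7 of them shared with the calls without it, and over all genes 2796, of which 2701 were shared.

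Changes of sign came with library size only (Clip1 0.07, Clip2 0.06, Mapre3 0.02, Tubgcp5 0.08, Tubb5 0.11, Tbcc 0.14), upper quartile scaling (Tubb5 0.02, Tbcc 0.06) and, for Tbcc, filterByExpr (0.01), no filter (0.02), the block (0.01) and thinning (0.03). Over the settings that left out 1 library, the log2 fold change ran from -0.16 to 0.01 for Clip1, -0.09 to 0.10 for Tbcc, -0.03 to 0.06 for Tuba1b and -0.08 to 0.01 for Tubb5. The cause of these moves was not tested.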

Other observations

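Qki proteins are known to bind ACTAAC and ACTAAT (written as DNA). Both hexamers were searched on the sense strand of the longest annotated 3′ untranslated region of each gene (GENCODE M21, at least 50 bases). At least 1 was found in 14 of 38 tested microtubule genes (36.8%) and in 3918 of 10825 tested genes overall (36.2%). The share was 4 of 7 for the genes called lower, 2 of 5 for those called higher and 8 of 26 for those not called, where the pseudogene Tubb2a-ps2, also called higher, has no such region. The regions differed in length, with a median of 1507 bases for the genes called lower, 723 for those called higher, 706 for those not called and 1300 over all genes. Per kilobase there were 0.60, 0.22 and 0.51 sites in these groups of microtubule genes and 0.34 over all genes. Among the genes called lower, Tppp held 2, Mapre1 held 5, and Clip3 and Clasp2 held 1 each, whereas Tubb6, Stmn4 and Tuba1a held 0. Dcx, which was not called and had a log2 fold change of 0.81, also held 5. Tppp had 0.46 sites per kilobase, below the 0.51 of the genes not called. The sites of Tppp, the gene with the largest change, are shown with the hexamer in capitals and 10 bases on each side. They start 396 and 2593 bases after the stop codon, within the windows chr13:74031801-74031826 and chr13:74033998-74034023 of GRCm38 (plus strand).
Tppp site 1: gagctaagaaACTAACcaactgcata
Tppp site 2: attagctattACTAATtatggataaa
A match is a description of the letters, and binding was not measured in these data.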
